A study of Mus musculus with 16 samples.

Results

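The transcription factor gene Myc and 35 genes of ribosome biogenesis were followed in cultured mouse mast cells that were activated through IgE, treated with an antibody against TIM-3, or both. The 36 genes were found by their gene symbol or an older synonym among the array's probes (Nop56 also as Nol5a, Nop58 as Nol5, Nop2 as Nol1). They make up 36 of the 17082 genes tested and 63 of the 41174 probes, and all 36 were read well above background on all 16 arrays in both colours. The cells were bone marrow cells grown for over 4 weeks with IL-3 (5 ng/ml) and SCF (40 ng/ml) in medium with 10% serum, over 90% of them positive for the IgE receptor and c-kit per the labels. No strain or genotype is given in the sources used here.

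Each array held a pair of RNAs, anti-TIM-3-treated cells in red (Cy5) and cells treated with non-specific goat IgG in green (Cy3), each antibody at 15 ug/ml. The 4 groups of 4 arrays were antigen-activated cells at 16 h, cells without antigen at 16 h, antigen-activated cells at 2 h and cells without antigen at 2 h. Activated cells had been loaded with anti-DNP IgE (5 ug/ml, 1 h) and then received the antigen DNP-HSA (100 ng/ml) together with the antibody, so that the IgE loading and the antigen come together in every comparison of activated with resting cells. Nothing in the labels says that replicates came from separate cultures, and p-values then measure only the spread between these arrays. The dyes were never swapped, so an anti-TIM-3 effect within a group cannot be told apart from a dye effect, whereas a difference between groups in the same dye is free of a constant one.

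Between 54.8% and 67.7% of spots on an array were well above background in Cy5, and between 53.7% and 62.1% in Cy3. All 11 mast cell markers were above background on every array, and so were all 6 markers of macrophages and dendritic cells and all 3 of basophils. In Cy3, 1 of 5 neutrophil genes on the array was above background on every array, as were 2 of 5 lymphocyte genes and 1 of 3 fibroblast genes. Ngp, Camp and Elane of the neutrophil genes were above background on none, nor was Cd3g for lymphocytes. On 3 arrays without antigen (replicate 3 at 2 h, replicates 1 and 3 at 16 h) the red-over-green ratios stood apart from those of other arrays of their groups. These arrays were picked after the data were seen, by no set threshold, and counts of calls that use them are also given without them. At 16 h the group without antigen was split evenly, so neither pair is the norm. Its replicates 1 to 4 had a lowest correlation with another array of the group of 0.47, 0.47, 0.41 and 0.41. The SD of their ratios was 0.22, 0.12, 0.23 and 0.13. These are bulk samples, in which fewer cells of a type and less RNA per cell cannot be told apart.

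Ribosomes are built in the nucleolus. RNA polymerase I transcribes the long ribosomal RNA precursor, small nucleolar RNPs (snoRNPs) guide its chemical modification, and large assembly complexes cut, fold and package it into the small (40S) and the large (60S) subunit. Myc, which binds DNA with its partner Max at the E-box CACGTG, is known to drive transcription of many of these genes in growing cells. Mast cells cross-linked through IgE receptors release granules and make new transcripts within hours. How stimulating TIM-3 changes the transcripts of such cells is the question of the study per its labels.

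Myc itself was lower with antigen at both times in IgG-treated cells. At 16 h its normalised log2 signal was 12.02, 11.99, 11.88 and 11.79 in antigen-activated cells, against 12.56, 12.48, 12.41 and 12.25 in cells without antigen. At 2 h it was 11.89, 11.92, 12.02 and 11.77 with antigen, against 12.44, 12.65, 12.23 and 12.46 without. All activated arrays lay below all resting arrays at each time. In limma's test across all genes the log2 change was -0.51 ± 0.09 at 16 h (SE, 1.42-fold lower, adjusted p = 0.000937) and -0.54 ± 0.09 at 2 h (1.46-fold lower, adjusted p = 7.13e-05). The size of the Myc change did not pass a test of difference between the times (16 h minus 2 h, 0.03 ± 0.12, SE, adjusted p = 0.863).

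The other 2 Myc probes gave -0.48 and -0.35 at 16 h and -0.45 and -0.45 at 2 h. With the slide as a block the change was -0.54 at 16 h and -0.50 at 2 h. Within the slides that held both groups it was -0.54 and -0.56 at 16 h, and -0.53 and -0.33 at 2 h.

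In anti-TIM-3-treated cells Myc passed the same antigen contrast at 2 h and not at 16 h. At 16 h the Cy5 signal was 12.26, 11.89, 12.15 and 11.84 with antigen, against 12.05, 12.43, 12.26 and 12.27 without, and the groups overlapped. At 2 h it was 12.25, 12.21, 12.12 and 12.28 with antigen, against 12.62, 12.54, 12.39 and 12.50 without, with no overlap. The log2 change was -0.21 ± 0.09 (SE) at 16 h, which did not pass the test (adjusted p = 0.129), and -0.30 ± 0.09 at 2 h, which did (adjusted p = 0.0155). Whether the antigen effect differed between the antibodies is tested by the difference of the ratios, which was 0.29 ± 0.11 at 16 h (adjusted p = 0.123) and 0.24 ± 0.11 at 2 h (adjusted p = 0.269); neither passed.

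**Figure D1:**
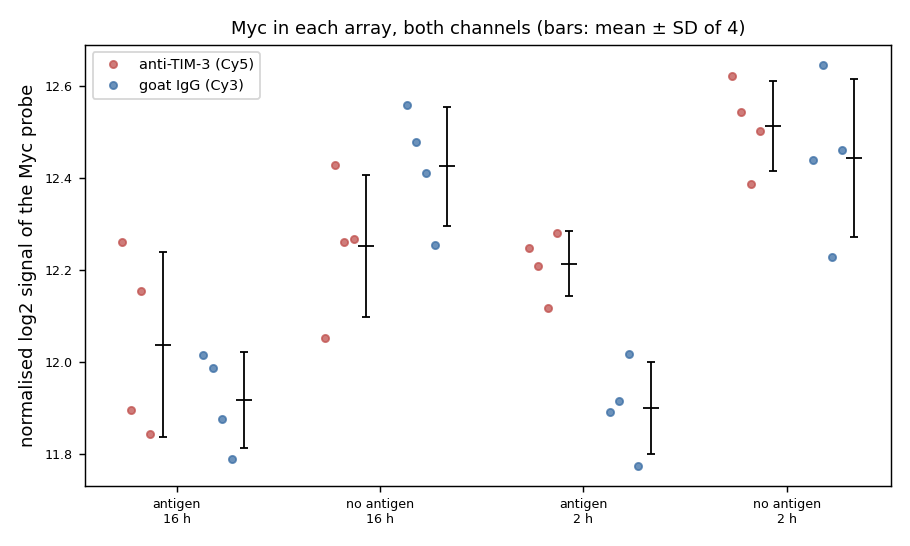
Normalised log2 signal of the Myc probe on each of the 16 arrays, anti-TIM-3-treated cells (Cy5, red) and goat IgG-treated cells (Cy3, blue), by antigen and time; black bars are the mean ± SD of 4 arrays. In IgG-treated cells every array with antigen (11.77 to 12.02) lies below every array without antigen (12.23 to 12.65).

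After 16 h of antigen the ribosome biogenesis genes stood lower together. In IgG-treated cells 23 of the 36 genes, Myc included, were lower and 0 were higher at an adjusted p under 0.05, and 31 had an unadjusted p under 0.05. Of all genes tested, 12.3% passed the adjusted threshold in either direction, 5.24% as higher and 7.03% as lower. The unadjusted count has no share of all genes beside it. The median log2 change of the 36 was -0.26, against 0.00 over all genes, and only Nip7 (0.11 ± 0.07) and Polr1c (0.07 ± 0.19) had values above 0. On 29 of the 36 genes all 4 antigen arrays lay below all 4 arrays without antigen, as did 11.6% of all genes. Without the 3 arrays that stood apart 15 were lower, and 1221 of all genes passed in either direction, against 2096 with all arrays.

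The genes that fell came from every step of the pathway. Nolc1, a chaperone of snoRNPs, fell most after Myc. Its log2 signal was 9.57, 9.66, 9.63 and 9.69 with antigen, against 10.09, 10.21, 10.06 and 10.02 without, with no overlap, and the change was -0.46 ± 0.06 (SE, adjusted p = 7.48e-05). Polr1a, the largest subunit of RNA polymerase I, read 10.76, 10.69, 10.80 and 10.70 with antigen, against 11.27, 11.02, 11.25 and 11.21 without, a change of -0.45 ± 0.07 (adjusted p = 0.000655). The groups did not overlap, and a second Polr1a probe gave -0.31. Polr1b, the next-largest subunit, changed by -0.38 ± 0.07 (adjusted p = 0.00169), while Polr1c, which RNA polymerases I and III share, did not pass.

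Among the core snoRNP proteins, 2 of the 3 box C/D genes fell, Nop56 by 0.39 ± 0.05 and Nop58 by 0.37 ± 0.06 on the log2 scale, with adjusted p of 0.000182 and 0.000991; these proteins hold the methyltransferase fibrillarin (Fbl, -0.20 ± 0.07, adjusted p over the threshold) on its guide RNA. Of the 4 box H/ACA genes, Dkc1, the pseudouridine synthase, Gar1 and Nhp2 fell, and Nop10 did not pass. Of the 6 nucleolar chaperones and regulators, Nolc1, the GTPase nucleostemin (Gnl3, -0.36 ± 0.08), Rrp1b (-0.26 ± 0.06) and nucleophosmin (Npm1, -0.22 ± 0.06) fell, while nucleolin (Ncl) and the RNA helicase Ddx21 did not pass. A further Rrp1b probe had the opposite sign.

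On the 40S side 4 of 8 genes fell. Utp20, a large scaffold of the small subunit processome, read 9.48, 9.51, 9.47 and 9.63 with antigen, against 9.86, 10.08, 9.86 and 10.02 without, and changed by -0.44 ± 0.06 (adjusted p = 0.00027). The antigen arrays were all lower. Rrp9, a protein of the U3 snoRNP, changed by -0.28 ± 0.05, Wdr43 by -0.26 ± 0.06 and Bysl by -0.24 ± 0.04. Imp4, another U3 snoRNP protein, was at -0.06 ± 0.06 and did not pass.

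On the 60S side 7 of 11 genes fell, with the helicase gene Ddx18 (-0.38 ± 0.09), the rRNA methyltransferase Nop2 (-0.34 ± 0.06) and Nle1 (-0.31 ± 0.06) changing most. Ppan, the homologue of yeast Ssf1, read 12.04, 12.04, 12.31 and 12.12 with antigen, against 12.42, 12.45, 12.52 and 12.33 without, a change of -0.30 ± 0.06 (adjusted p = 0.00242). Its highest antigen array (12.31) lay just under the lowest array without antigen (12.33). Of the PeBoW complex, Wdr12 (-0.25 ± 0.04) and Bop1 (-0.19 ± 0.05) fell and Pes1 (-0.06 ± 0.05) did not pass. The Bop1 and Npm1 calls were lost on leaving out single arrays, with adjusted p up to 0.0647 and 0.0644.

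In IgG-treated cells the median change of the 36 genes was -0.24 with the slide as a block, and -0.24 and -0.24 within the 2 slides that held both groups. The median signal of the 36 genes on each array was at most 10.81 with antigen, against at least 10.92 without. Markers of other cell types moved unevenly in the same contrast. Of the 3 basophil markers Cd200r3 (0.45) passed as higher, and their summed signal ran between 26977 and 29738 with antigen and between 20378 and 21535 without, with no overlap. For macrophages and dendritic cells, Itgax (1.35) and Cd68 (0.94) passed as higher of the 6, the other 4 did not pass, and the summed signal ran between 20691 and 61369 with antigen and between 35611 and 69348 without. Their part in the result was not tested.

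In anti-TIM-3-treated cells, measured in the other dye on the same arrays, 22 of the 36 genes were lower with antigen at 16 h and 0 higher, where 19.2% of all genes passed in either direction, 9.37% as higher and 9.84% as lower. An unadjusted p under 0.05 was reached by 30, a count with no share of all genes beside it. All 36 changes were below 0, with a median of -0.24, and for 25 genes the groups did not overlap (all 4 antigen arrays lower), as for 10.6% of all genes. Utp20 (-0.57 ± 0.11), Nolc1 (-0.52 ± 0.08), Polr1b (-0.51 ± 0.10), Rrp12 (-0.48 ± 0.11) and Nop14 (-0.47 ± 0.11) changed most. Rrp12 and Nop14 act on the 40S side. Polr1a, which fell in IgG-treated cells, was at -0.11 here and did not pass. Without the 3 arrays that stood apart 17 of the 22 calls were kept, and 1864 of all genes passed in either direction, against 3281 with all arrays.

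**Figure D2:**
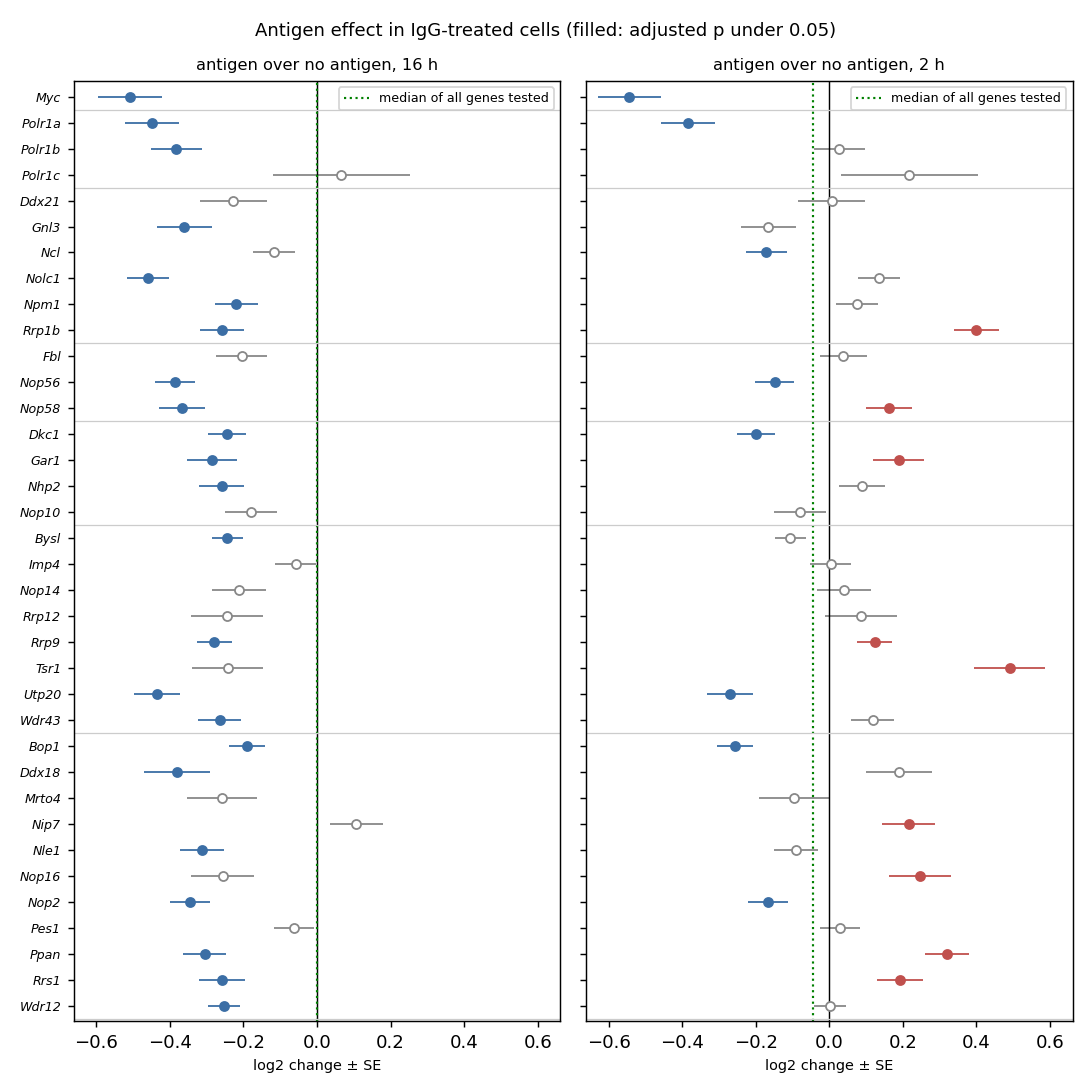
Log2 change with antigen in IgG-treated cells for each of the 36 genes at 16 h (left) and 2 h (right), ordered by role with grey lines between roles; points are limma estimates from 4 against 4 arrays, bars are ± SE, filled points passed an adjusted p of 0.05, red above and blue below 0, and the dotted line is the median of all genes. At 16 h the filled points all lie below 0 (23 genes), and at 2 h they lie on both sides (9 above, 8 below).

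At 2 h the pathway was split. In IgG-treated cells 9 genes were higher and 8 lower with antigen, where 42.9% of all genes passed, 15.3% as higher and 27.6% as lower, so the share of called members was near that of all genes. The median of the 36 was 0.03, against -0.04 over all genes. For 5 genes all antigen arrays were higher than all others, and for 10 all were lower, as for 13.8% and 24.6% of all genes.

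Tsr1, a GTPase-like protein of late 40S assembly, had the largest rise at 2 h. It read 10.70, 10.92, 10.92 and 10.77 with antigen, against 10.57, 10.21, 10.42 and 10.15 without, with no overlap and a change of 0.49 ± 0.10 (SE, 1.41-fold, adjusted p = 0.000515). Its second probe gave 0.47. Rrp1b, a nucleolar protein of rRNA processing, read 8.41, 8.54, 8.29 and 8.29 with antigen, against values between 7.94 and 8.03 without, a change of 0.40 ± 0.06 (adjusted p = 4.76e-05). Again the groups did not overlap; of its 3 other probes, 2 gave 0.40 and 0.41 and 1 gave -0.03.

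Ppan read 13.15, 13.19, 13.19 and 13.21 with antigen, against 12.81, 12.92, 12.88 and 12.85 without, and rose by 0.32 ± 0.06 (adjusted p = 0.000274). All antigen arrays were higher. Nop16, another 60S assembly factor, read 11.99, 12.03, 12.07 and 11.96 with antigen, against 11.91, 11.59, 11.98 and 11.59 without; here the groups overlapped, and the rise of 0.25 ± 0.09 (adjusted p = 0.0278) was lost on leaving out 1 of several arrays (adjusted p up to 0.0957). Nip7 (0.22 ± 0.07), Rrs1 (0.19 ± 0.06), Gar1 (0.19 ± 0.07), Nop58 (0.16 ± 0.06) and Rrp9 (0.12 ± 0.05) were the other rises, and each of these 5 calls was lost on leaving out at least 1 array.

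Among the genes lower at 2 h, Polr1a followed Myc in size. It read 11.66, 11.47, 11.60 and 11.49 with antigen, against 11.87, 11.87, 12.15 and 11.87 without, with no overlap and a change of -0.38 ± 0.07 (adjusted p = 0.00037). Its second probe gave 0.41 at 2 h, and the mean of both probes was 0.01 (adjusted p = 0.89), so the direction for Polr1a at 2 h depends on the probe. Utp20 read 10.55, 10.66, 10.55 and 10.55 with antigen, against 10.94, 10.76, 10.91 and 10.77 without, a change of -0.27 ± 0.06 (adjusted p = 0.00218), every antigen array being lower.

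Bop1, a WD-repeat protein of 60S assembly, read 12.22, 12.13, 12.19 and 12.15 with antigen, against 12.41, 12.35, 12.46 and 12.50 without, and fell by 0.26 ± 0.05 on the log2 scale (adjusted p = 0.000443). Its groups did not overlap. Dkc1 (-0.20 ± 0.05), Ncl (-0.17 ± 0.06), Nop2 (-0.17 ± 0.06) and Nop56 (-0.15 ± 0.05) completed the genes that fell. The Ncl, Nop2 and Nop56 calls were lost on leaving out single arrays (adjusted p up to 0.061, 0.0672 and 0.112). Polr1c did not pass. It read 13.18, 13.06, 13.10 and 13.15 with antigen, against 13.14, 12.05, 13.36 and 13.09 without, where replicate 2 was low in both dyes (12.05 in Cy3, 12.08 in Cy5). Ddx21, at 0.01 ± 0.09 on the probe used, had 2 further probes at 0.36 and 0.45.

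In anti-TIM-3-treated cells at 2 h 10 genes rose and 5 fell with antigen, where 45.4% of all genes passed, 17.1% as higher and 28.3% as lower. Tsr1 (0.64 ± 0.08), Nip7 (0.45 ± 0.06), Rrp1b (0.44 ± 0.07), Ppan (0.37 ± 0.06) and Nop16 (0.36 ± 0.06) rose most. Utp20 (-0.35 ± 0.11), Myc, Polr1a (-0.29 ± 0.06), Bop1 (-0.22 ± 0.04) and Nop10 (-0.16 ± 0.06) fell. The second Polr1a probe had the opposite sign, so the direction for Polr1a depends on the probe here too. Leaving out single arrays ended the Nop10 call (adjusted p up to 0.0995) and the Utp20 call (up to 0.0502). Without the 3 arrays that stood apart 12 rose and 5 fell. Over the alternatives run, single arrays left out aside, between 7407 and 8546 of all genes passed.

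**Figure D3:**
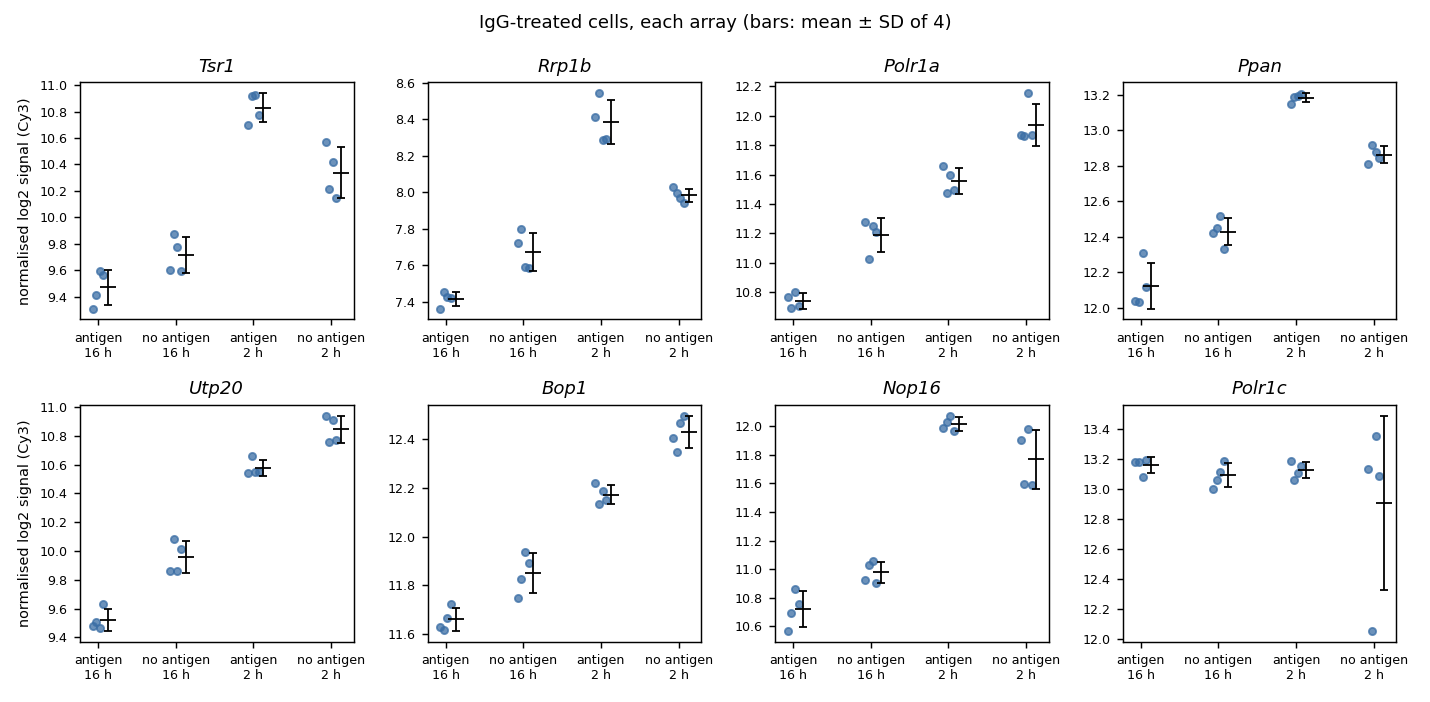
Normalised log2 signal (Cy3) in IgG-treated cells on each array for the 8 genes with the largest antigen effect at 2 h besides Myc, by antigen and time; points are arrays and bars the mean ± SD of 4, and each panel has its own axis. On all arrays Tsr1, Rrp1b and Ppan are higher with antigen than without at 2 h and lower at 16 h (Tsr1 did not pass the test at 16 h), and 1 array without antigen at 2 h sits low for Polr1c (12.05).

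The antigen effect itself differed between the times for 16 of the 36 genes in IgG-treated cells, all more negative at 16 h (16 h minus 2 h), and for 0 in the other direction. Of all genes tested 33.3% passed this test, 12.8% as more negative and 20.6% as more positive. Tsr1 differed by -0.73 ± 0.14 (adjusted p = 0.000526), Rrp1b by -0.66 ± 0.09 (adjusted p = 2.09e-05), Ppan by -0.62 ± 0.08 (adjusted p = 2.35e-05) and Nolc1 by -0.59 ± 0.08 (adjusted p = 3.12e-05). For 6 genes (Gar1, Nop58, Ppan, Rrp1b, Rrp9 and Rrs1) the antigen effect was called lower at 16 h and higher at 2 h. Of these, the Gar1, Nop58, Rrp9 and Rrs1 calls at 2 h were lost on leaving out single arrays. A further Rrp1b probe had the opposite sign at 16 h and in the difference between the times. Lower at both times were 7, namely Bop1, Dkc1, Myc, Nop2, Nop56, Polr1a and Utp20, and 10 were called lower at 16 h alone. Polr1a belongs to the 7 on the probe used only, as given above. Also of the 7, the Nop2 and Nop56 calls at 2 h and the Bop1 call at 16 h were lost on leaving out single arrays. These joint counts were made for the members only and have no share of all genes beside them. Without the 3 arrays that stood apart 19 genes passed, all more negative, and 4602 of all genes passed in either direction, against 5695 with all arrays.

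The promoter windows of 4 genes are shown because they hold the E-box that Myc and Max bind, in genes that fell, rose or did neither with antigen. RefSeq windows on GRCm38.p6, 250 bases before to 50 after an annotated start, were matched for 30 of the 36 genes; Myc, Fbl, Rrp12, Rrs1, Npm1 and Bop1 had none in the table used. CACGTG, the only motif searched, reads the same on both strands. It was found in a window of 7 of the 30 genes (23.3%) and of 8.09% of the 27025 genes with a window. The 27025 were not limited to genes read above background here, whereas all members were, so the gene sets are unlike. The 7 were Imp4, Nle1, Nop2, Pes1, Tsr1, Utp20 and Wdr43. The sequences run 5′ to 3′ on the gene's strand, with CACGTG in capitals.
Tsr1, chr11:74897830-74898129, plus strand: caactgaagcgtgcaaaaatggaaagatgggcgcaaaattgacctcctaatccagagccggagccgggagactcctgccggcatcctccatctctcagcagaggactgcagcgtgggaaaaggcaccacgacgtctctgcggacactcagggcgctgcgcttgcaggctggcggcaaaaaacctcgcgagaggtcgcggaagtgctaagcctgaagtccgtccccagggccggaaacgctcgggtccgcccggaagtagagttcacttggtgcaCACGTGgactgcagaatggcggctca
Utp20, chr10:88826765-88827064, minus strand: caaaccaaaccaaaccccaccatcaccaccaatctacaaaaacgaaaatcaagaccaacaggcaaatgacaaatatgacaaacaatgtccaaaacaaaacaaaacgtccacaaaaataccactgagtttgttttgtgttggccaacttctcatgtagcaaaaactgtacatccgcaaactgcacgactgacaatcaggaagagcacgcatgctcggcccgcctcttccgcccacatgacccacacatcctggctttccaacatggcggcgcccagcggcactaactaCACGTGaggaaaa
Nop2, chr6:125131633-125131932, plus strand: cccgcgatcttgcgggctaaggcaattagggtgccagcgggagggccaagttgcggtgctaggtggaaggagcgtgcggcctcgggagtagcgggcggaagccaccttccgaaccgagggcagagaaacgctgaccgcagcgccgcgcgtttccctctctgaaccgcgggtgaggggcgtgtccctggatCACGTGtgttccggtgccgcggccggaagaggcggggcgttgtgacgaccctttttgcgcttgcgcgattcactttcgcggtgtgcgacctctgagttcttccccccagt
Imp4, chr1:34439579-34439878, plus strand: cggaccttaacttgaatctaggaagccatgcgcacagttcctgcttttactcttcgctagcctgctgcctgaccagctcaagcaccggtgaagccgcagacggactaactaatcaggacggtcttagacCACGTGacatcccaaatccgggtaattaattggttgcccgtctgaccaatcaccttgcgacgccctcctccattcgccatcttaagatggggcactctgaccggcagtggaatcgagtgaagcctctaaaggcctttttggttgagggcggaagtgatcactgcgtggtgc
The motif began 60 bases before the start in Nop2 and 121 before it in Imp4, and 24 and 37 bases after it in Tsr1 and Utp20. With antigen at 16 h in IgG-treated cells the 7 genes with it had negative changes, as had all of the 36 genes except Nip7 and Polr1c. The 7 did not share one response over both times. Nle1 and Wdr43 passed as lower at 16 h and did not pass at 2 h, and Pes1 passed at neither time. In IgG-treated cells Tsr1 changed by -0.24 (not passing) at 16 h and 0.49 at 2 h, Utp20 by -0.44 and -0.27, Nop2 by -0.34 and -0.17, and Imp4 by -0.06 and 0.00 (neither passing). These matches are descriptions of letters and not of binding.

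Between 2 and 16 h in culture with IgG the biogenesis genes fell with and without antigen, while Myc did not pass the test in either. This comparison was added after the levels had been seen. In antigen-activated cells 32 of the 36 genes were lower at 16 h than at 2 h and 0 higher, where 60.1% of all genes passed, 26.3% as lower and 33.8% as higher. Without antigen 30 were lower and 1, Npm1, was higher (0.21 ± 0.06, adjusted p = 0.00631), where 46.9% of all genes passed, 22.9% as lower and 24% as higher. The median change of the 36 was -0.65 with antigen and -0.42 without, against 0.03 and -0.01 over all genes. All genes of the 40S side (8) and the 60S side (11) were lower in both.

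Rrp12, an export and assembly factor of the 40S side, had the largest fall, by 1.44 ± 0.10 with antigen and by 1.11 ± 0.10 without on the log2 scale (2.72-fold and 2.16-fold lower). With antigen it was followed by Tsr1 (-1.36 ± 0.10), Nop16 (-1.29 ± 0.09), Rrp9 (-1.15 ± 0.05), Polr1b (-1.14 ± 0.07) and Nle1 (-1.07 ± 0.06). With antigen Rrp12 read 6.94, 7.41, 7.17 and 7.29 at 16 h, against 8.58, 8.74, 8.59 and 8.67 at 2 h, and without antigen 7.39, 7.72, 7.42 and 7.26 at 16 h, against 8.60, 8.52, 8.63 and 8.49 at 2 h. The times did not overlap in either. Tsr1 read at most 9.59 at 16 h with antigen, against at least 10.70 at 2 h with antigen. Myc changed by 0.02 ± 0.09 with antigen (adjusted p = 0.883) and -0.02 ± 0.09 without (adjusted p = 0.89), and its groups overlapped. Polr1c and Nop10 did not pass in either, nor Npm1 with antigen, nor Nop56 and Ddx21 without.

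For 33 genes with antigen and 29 without, all 16 h arrays lay below all 2 h arrays, as did 26.1% and 19.9% of all genes. Without the 3 arrays that stood apart 26 genes were lower and 1 higher in cells without antigen, and 6329 of all genes passed in either direction, against 8010 with all arrays. With the slide as a block the median change was -0.55 with antigen and -0.41 without. On the 1 slide that held both times with antigen it was -0.62, and on the 3 slides without antigen it was -0.39, -0.37 and -0.48. The labels do not say whether the cultures of both times were begun together, so time and culture cannot be told apart.

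**Figure D4:**
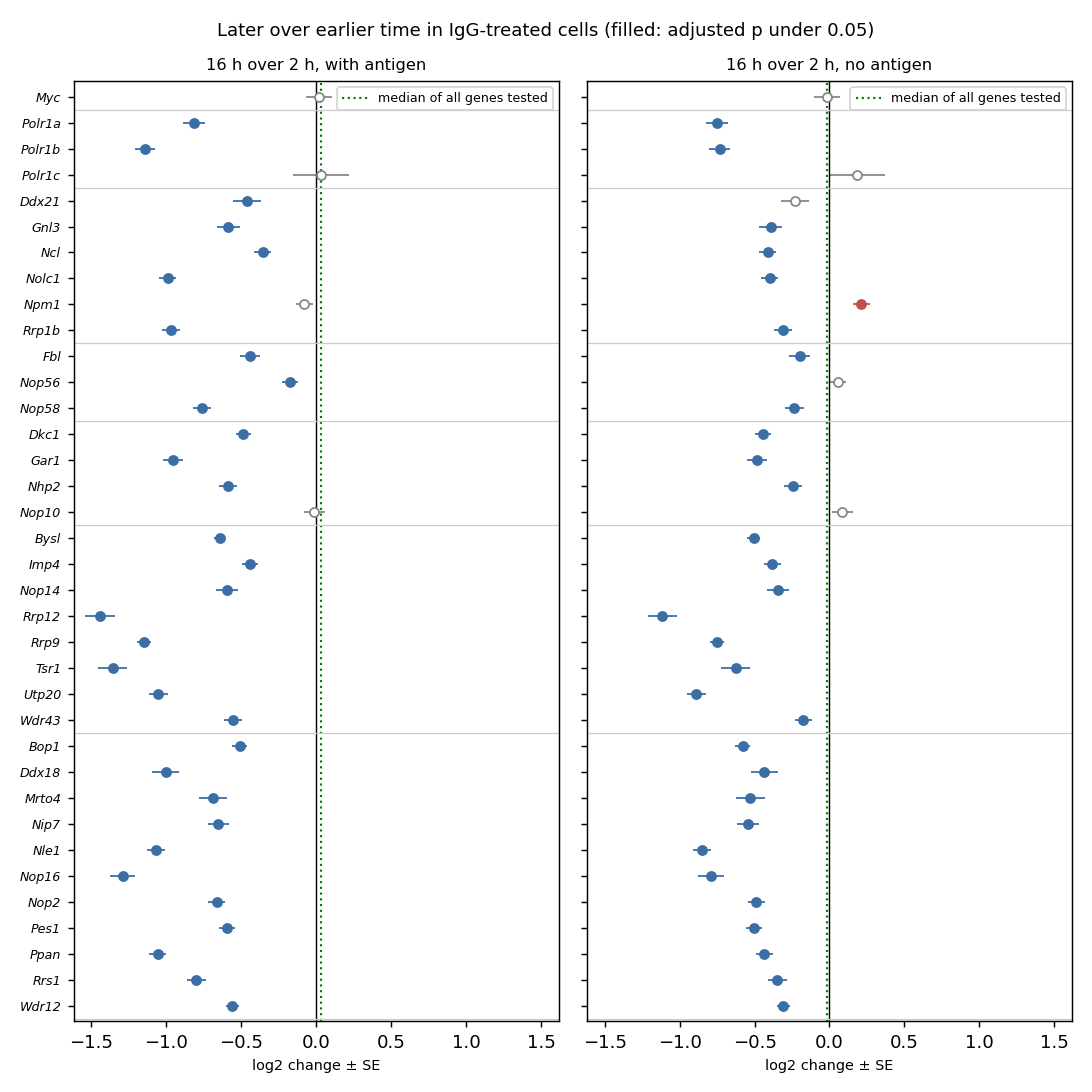
Log2 change at 16 h over 2 h in IgG-treated cells for each of the 36 genes, with antigen (left) and without (right); points are limma estimates, bars ± SE, filled points passed an adjusted p of 0.05, and the dotted line is the median of all genes. All 32 filled points with antigen lie below 0, Npm1 is the single filled point above 0 without antigen, and Myc lies at 0.02 and -0.02.

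The ratios of anti-TIM-3 over IgG were small for these genes and lay in both directions. In antigen-activated cells at 16 h 6 were higher and 1 lower than with IgG, where 30.1% of all genes passed, 16.9% as higher and 13.2% as lower. In cells without antigen at 16 h 7 were higher and 4 lower, against 21.6% of all genes, 11.7% as higher and 9.95% as lower. At 2 h 7 were higher and 4 lower in activated cells, against 33.3% of all genes, 17.1% as higher and 16.3% as lower. In cells without antigen at 2 h 3 were higher and 3 lower, against 14% of all genes, 7.07% as higher and 6.92% as lower. In these 4 comparisons the median log2 ratio of the 36 genes ran between -0.05 and 0.08. The called share of the members was above that of all genes in cells without antigen at 16 h, where none of the 11 calls passed without the 3 arrays that stood apart, and near or below it in the other 3 comparisons. In cells without antigen at 2 h, 7 genes passed without the array that stood apart there (2 higher, 5 lower), and 5 of the 6 calls were kept. Marker genes moved in the same ratio in activated cells at 16 h. Of the 6 markers of macrophages and dendritic cells 5 were lower with anti-TIM-3 and 1 was higher (Itgax, 0.49), and of the 11 mast cell markers 8 were higher and 1 lower (Tpsb2, -0.57). Mast cell markers were also higher elsewhere, 6 (and 1 lower) without antigen at 16 h, and at 2 h 3 with and 4 without antigen (0 lower). At most 1 marker of macrophages and dendritic cells was called in each of those groups. Their part in the members' ratios was not tested.

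Myc was higher with anti-TIM-3 in antigen-activated cells at 2 h. The log2 ratio was 0.36, 0.29, 0.10 and 0.51 on the 4 arrays, all above 0, with a mean of 0.31 ± 0.17 (SD, n = 4) and limma's adjusted p = 0.00618. The other 2 probes gave 0.33 and 0.37. The call was lost with the slide as a block (0.22, adjusted p = 0.0701) and without replicate 4 (0.25, adjusted p = 0.057). In the other groups the ratio did not pass: 0.24, -0.09, 0.28 and 0.05 in activated cells at 16 h, -0.51, -0.05, -0.15 and 0.01 in cells without antigen at 16 h, and 0.18, -0.10, 0.16 and 0.04 in cells without antigen at 2 h.

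Only a few genes had the same call in several groups. Wdr43, of the 40S side, was higher with anti-TIM-3 in all 4 groups, with ratios of 0.32, 0.16, 0.20 and 0.17 in activated cells at 16 h, 0.32, 0.20, 0.45 and 0.15 in cells without antigen at 16 h, 0.35, 0.20, 0.18 and 0.38 in activated cells at 2 h, and 0.08, 0.17, 0.36 and 0.22 in cells without antigen at 2 h. All 16 were above 0. Its second probe, however, read -0.06, 0.14, 0.09 and 0.08 as group means in the same order. Npm1 was higher in all 4 groups on the probe used (means of 0.13, 0.17, 0.13 and 0.18), and its second probe read -0.04, 0.08, -0.05 and -0.06. For ratios of the same sign in every group, dye and antibody cannot be told apart.

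Nop2 was lower in all 4 groups, at -0.13, -0.18, -0.10 and -0.17 in the same order, below 0 on all 16 arrays. With the median of each array in place of loess, its ratio turned positive in all 4 groups (0.52, 0.35, 0.46 and 0.33), and the median of the 36 genes became 0.58, 0.50, 0.46 and 0.36. That scaling moved the median of all genes to 0.39, 0.30, 0.22 and 0.21. The direction of the anti-TIM-3 ratio of Nop2, and of Ncl, Nop10, Bysl, Ppan, Polr1a and Gar1 where they were called lower, thus depends on the loess step, which fits the dye ratio against brightness.

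Ncl and Rrp12 were lower with anti-TIM-3 in activated cells at 2 h (-0.38 ± 0.11 and -0.30 ± 0.07, SE, limma adjusted p = 0.0108 and 0.00369). Rrp12 was also called lower in cells without antigen at 2 h (-0.24) and higher in cells without antigen at 16 h (0.22). The Rrp12 calls in cells without antigen, and the Ncl call, were lost on leaving out single arrays. Ncl read -0.27, -0.47, -0.29 and -0.51 there. In cells without antigen it read 0.34, -0.23, 0.40 and -0.21 at 16 h and -0.54, -0.50, 0.14 and -0.38 at 2 h, where the 3 arrays that stood apart are the 3 above 0. Without those arrays 0 of the 11 genes called in cells without antigen at 16 h passed, and 523 of all genes did.

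Whether the antibody's effect differed between activated and resting cells was tested directly. At 16 h 2 genes passed, Bop1 (0.18 ± 0.04, adjusted p = 0.0186) and Polr1a (0.34 ± 0.10, adjusted p = 0.0385), both higher in activated cells, where 8.58% of all genes passed, 4.71% as higher and 3.87% as lower. Neither passed without the 3 arrays that stood apart. At 2 h limma called 0 (3 at an unadjusted p under 0.05), where 5.58% of all genes passed, 3.59% as higher and 1.99% as lower. Between the times, Bop1 (0.15 ± 0.04, adjusted p = 0.0269) and Nop10 (0.20 ± 0.06, adjusted p = 0.04) had a higher ratio at 16 h than at 2 h in activated cells, where 17.2% of all genes passed, 9.14% as higher and 8.05% as lower. Both calls were lost on leaving out single arrays (adjusted p up to 0.0802 for Bop1 and 0.116 for Nop10) and with the slide as a block. In cells without antigen limma called 0 (12 at an unadjusted p under 0.05), where 0.287% of all genes passed, 0.0878% as higher and 0.199% as lower. All shares of all genes here are at the adjusted threshold, so the unadjusted counts cannot be set against them. Both comparisons with 0 calls also had 0 in limma without the 3 arrays.

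**Figure D5:**
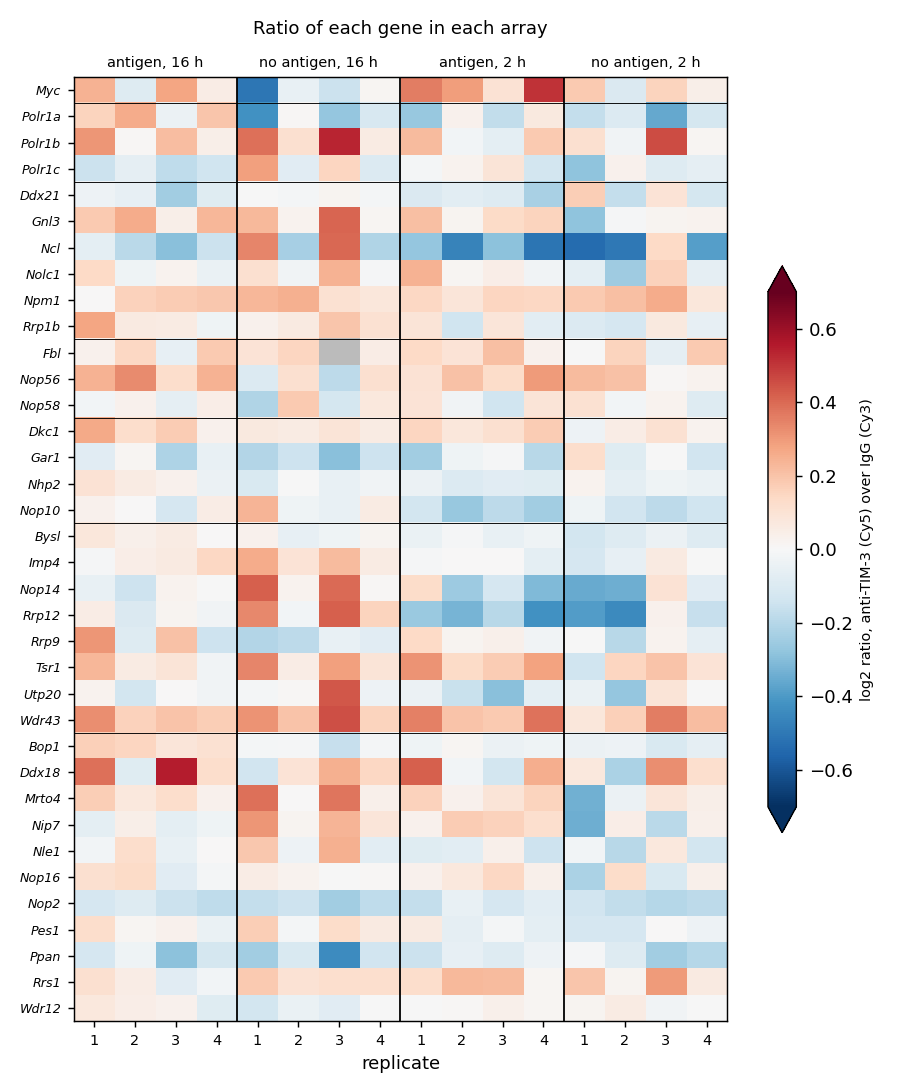
Log2 ratio of anti-TIM-3 (Cy5) over IgG (Cy3) for each of the 36 genes (rows, by role, with lines between roles) on each of the 16 arrays (columns, by group and replicate); red is above 0, blue below, and grey is a value left out (Fbl, 1 array). Wdr43 is red and Nop2 blue throughout, and replicates 1 and 3 without antigen at 16 h differ from replicates 2 and 4 for Ncl, Nop14, Rrp12 and Polr1b.

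The rest of the pathway was followed through 174 further genes, of which 171 were measured. In IgG-treated cells with antigen at 16 h 47 of them were lower and 3 higher (median -0.11), where 7.03% of all genes were lower and 5.24% higher. The enzymes of nucleotide, polyamine and growth metabolism that Myc is known to regulate contributed 18 lower and 0 higher of 30, with a median of -0.27. Mthfd2, of mitochondrial folate metabolism (-0.79 ± 0.11), Shmt2, of the same pathway (-0.62 ± 0.09), and Ctps, which makes CTP (-0.59 ± 0.05), changed most. Of the 40S assembly list 9 of 36 were lower, led by the GTPase Bms1 (-0.47 ± 0.07), and of the 60S list 9 of 42, led by Rrp15 (-0.39 ± 0.06). Cdkn2a (0.38 ± 0.09) and Mdm2 (0.33 ± 0.07), regulators of p53 that are linked to the nucleolus, were higher.

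At 2 h 41 of the 171 were higher and 45 lower in IgG-treated cells (median 0.01). Of all genes 15.3% were higher and 27.6% lower, so the lower share of the list was near that of all genes. Tfrc, the transferrin receptor (1.08 ± 0.08), and Odc1, the first enzyme of polyamine synthesis (0.68 ± 0.08), rose, and the purine synthesis enzymes Atic (-0.66 ± 0.07) and Gart (-0.60 ± 0.06) fell. In the Myc network, the Max-binding repressors Mxd1 (-1.20 ± 0.09), Mxd4 (-1.00 ± 0.07) and Mxd3 (-0.75 ± 0.08) fell with antigen at 2 h, beside Myc itself, while the related repressor Mxi1 (0.32 ± 0.05) rose. At 16 h only Mxd3 passed in that network (-0.46 ± 0.08). Over time in antigen-activated IgG-treated cells, Mxd3 (1.45 ± 0.08), Mxd1 (1.17 ± 0.09) and Mxd4 (1.01 ± 0.07) were higher at 16 h than at 2 h. There the 40S list had 30 of 36 lower and the 60S list 35 of 42 lower, against 26.3% of all genes. Without antigen 29 of 36 and 33 of 42 were lower, against 22.9% of all genes, so these falls were not particular to activated cells. Of the 12 measured genes of the Myc network, 2 were higher and 3 lower over time without antigen, with a largest rise of 1.16.

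Further probes of 17 members bear on how far the single probe stands for its gene. For 25 such probes the direction was that of the probe used for 23 with antigen at 16 h, for 20 at 2 h, and for 23 and 24 over time with and without antigen, all in IgG-treated cells. For the anti-TIM-3 ratio it was the same for 18 and 17 at 16 h and for 16 and 11 at 2 h, in cells with and without antigen.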

How the data were processed

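RNA of anti-TIM-3-treated (Cy5) and goat IgG-treated cells (Cy3) was hybridised together on 16 2-colour Agilent arrays, 4 on each of 4 slides. The deposited scanner files hold spot intensities, which the authors extracted with Agilent Feature Extraction 9, per the submitters' processing notes and the file headers. The deposited log10 ratios of red over green come from the same software, per the file headers, and the deposited value table was identical to them (largest difference 0), so its scale is log10, its direction red over green, and its column medians are 0.

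From the mean and background intensities, log2 ratios and single-channel log2 signals were computed with limma 3.58.1 in R 4.3.3: normexp with an offset of 50, loess within arrays with control and outlier spots at weight 0, and Aquantile for the single channels. Spots of a probe were averaged. Probes that passed the scanner software's background test in Cy5 or Cy3 on 3 or more arrays of any group stayed in (25394 of 41174), and the brightest probe stood for its gene. Probes were named through RefSeq by accession (22951), current symbol (6659) or older symbol (3109), and 8455 kept the file's name. No spot was saturated. The number of arrays limits the precision.

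limma's moderated test was fitted on all 17082 genes with a mean for each of 4 groups, and p-values were adjusted by Benjamini-Hochberg over all genes; an adjusted p under 0.05 is a call. The limma fit alone was tested on simulated data, made as gene values with known changes. The members and gene lists were chosen with earlier results of these data known. Named were Myc, up to 10 members a comparison with the largest called change, and up to 3 genes each way of each other list; values on every array were given for Myc and the 8 members with the largest antigen effect at 2 h in IgG-treated cells. Further members, and the array values of Nolc1, Wdr43 and Ncl, were chosen after their values were seen.

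Arrays with the same replicate number did not deviate together throughout (24 correlations between -0.45 and 0.64, median 0.12, against -0.05 for other numbers), although the 6 pairs of replicate 2 lay between 0.23 and 0.47. The numbers were not used as a block. Array values of Rrp12 were chosen after they were seen. Alternatives were Agilent's processed signals, the value table, an offset of 16, median centring, other probe filters and summaries, blocks for replicate and slide, quantile normalisation of a channel, and leaving out each array.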

Additional observations from a re-analysis of the deposited data

Results flagged for a closer look

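In 6 of the 120 groups of 4 arrays examined, for Myc, the 8 genes shown array by array and the medians of all members, 1 array lay far from the other 3, where chance gives about 1 in 20 groups. In Cy3, Polr1a read 12.15 on replicate 3 without antigen at 2 h (nearest 11.87), Utp20 read 10.66 on replicate 2 with antigen at 2 h (nearest 10.55), and Polr1c read 13.08 on replicate 3 with antigen at 16 h (nearest 13.18). In Cy5, Utp20 read 10.26 on replicate 3 with antigen at 2 h (nearest 10.48). Replicate 3 without antigen at 16 h, one of the 3 arrays that stood apart, had a log2 ratio of 0.43 for Utp20 (nearest 0.01) and of -0.16 for Bop1 (nearest -0.01).

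Effects that differed between groups by limma's test of the difference were few for the antibody. The anti-TIM-3 ratio was higher at 16 h than at 2 h in activated cells for Nop10 (0.20) and Bop1 (0.15), and higher in activated than in resting cells at 16 h for Polr1a (0.34) and Bop1 (0.18).

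The antigen effect in IgG-treated cells was more negative at 16 h than at 2 h for 16 genes. On the log2 scale the difference was -0.73 for Tsr1, -0.66 for Rrp1b, -0.62 for Ppan, -0.59 for Nolc1, -0.57 for Ddx18, -0.53 for Nop58, -0.50 for Nop16 and -0.47 for Gar1. It was -0.45 for Rrs1, -0.41 for Polr1b, -0.40 for Rrp9, -0.38 for Wdr43, -0.35 for Nhp2, -0.29 for Npm1, -0.25 for Wdr12 and -0.24 for Nop56.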

How the results depend on the processing

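The lower levels with antigen at 16 h and over time in IgG-treated cells kept their direction under all alternatives run. The anti-TIM-3 ratios did not. With the median of each array in place of loess, 35 and 36 members passed at 16 h and 35 and 33 at 2 h in activated and resting cells, with medians of 0.58, 0.50, 0.46 and 0.36. Most genes of the array passed too with that centring, 13562 and 12493 at 16 h and 11073 and 10476 at 2 h in the same order. Nop2 then turned to 0.52 and 0.35 at 16 h and 0.46 and 0.33 at 2 h in the same cells. So did Ncl (0.36) and Nop10 (0.34) in activated cells at 2 h, Bysl (0.35) in resting cells at 2 h, and Myc (0.34), Ppan (0.28), Polr1a (0.25) and Gar1 (0.26) in resting cells at 16 h. Activated minus resting, that centring gave medians of 0.085 at 16 h (4 called, and 2213 of all genes) and 0.10 at 2 h. For 16 h minus 2 h it gave medians of 0.12 in activated (4 called, and 5345 of all genes) and 0.12 in resting cells.

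With Agilent's processed signals, and with the value table, Npm1 turned to -0.044 and -0.054 in activated and resting cells at 16 h and to -0.040 in activated cells at 2 h, and the median of the members there became -0.031. Both left 7 calls in resting cells at 16 h, 0 for activated minus resting at 16 h and 1 for 16 h minus 2 h in activated cells, where an offset of 16 left 0. The mean of a gene's probes gave a median of 0.048 in activated cells at 2 h, 4 calls for activated minus resting at 16 h, and -0.33 as the median antigen effect of IgG-treated cells, 16 h minus 2 h. It turned Polr1a with antigen at 2 h to 0.15 in anti-TIM-3-treated and 0.011 in IgG-treated cells, neither passing.

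Fitting only the arrays compared left 0 calls in resting cells at 2 h, 3 in resting cells at 16 h, 0 for activated minus resting at 16 h, 5 for 16 h minus 2 h in activated cells, and 10 for antigen in IgG-treated cells at 2 h; it has fewer arrays to estimate the spread. Without the 3 arrays that stood apart, an alternative chosen after seeing the data, 0 passed in resting cells at 16 h (median 0.016), 0 for activated minus resting at 16 h (median 0.032), 4 for 16 h minus 2 h in activated cells, and 15 and 11 for antigen in IgG-treated cells at 16 h and 2 h. With the slide as a block 1 passed for activated minus resting at 2 h and 1 for 16 h minus 2 h in activated cells, and the median over time in activated IgG-treated cells was -0.55. With the replicate block, whose numbers share only a label here, 4 and 1 passed for 16 h minus 2 h in activated and resting cells. The cause of these shifts was not tested.

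Leaving out single arrays gave 6 to 12 calls for anti-TIM-3 in activated cells at 2 h, 3 to 7 in resting cells at 2 h and 3 to 14 in resting cells at 16 h. It gave 0 to 3 for activated minus resting at 16 h, 0 to 3 and 0 to 4 for 16 h minus 2 h in activated and resting cells, and 11 to 17 for antigen in IgG-treated cells at 2 h. Calls kept whichever array was left out numbered 21 of 23 for antigen in IgG-treated cells at 16 h, 8 of 17 at 2 h, and 32 of 32 and 29 of 31 over time with and without antigen. They numbered 16 of 22 and 10 of 15 for antigen in anti-TIM-3-treated cells at 16 h and 2 h, and 15 of 16 for the antigen effect in IgG-treated cells, 16 h minus 2 h. For the anti-TIM-3 ratio they numbered 5 of 7 and 2 of 11 at 16 h and 4 of 11 and 2 of 6 at 2 h, in activated and resting cells, and 0 of 2 for each of its differences between groups that had calls.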
